A study of Moricandia suffruticosa and Brassica napus with 23 samples.

Results

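Heated leaves of oilseed rape (Brassica napus) were set directly against droughted leaves of the same species. The genes compared were all those with a value of 1 or more in at least 3 of the 6 stressed libraries, 42384 of the 101040 genes listed, and 33904 genes stood at 0 in all 6. Of the 42384, 32898 reached 1 in all 6 libraries. The 4800 genes that reached 1 in exactly 3 libraries had a median over libraries of 1.13, and the 2075 genes that reached it in exactly 2, and so were left out, had a median of 0.674. A group of 2912 genes entered only through the 3 heat libraries and 1222 only through the 3 drought libraries, and such genes had to differ between the groups.

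All plants were raised in soil to an age of 35 days, with 25 °C, 60% humidity and 16 h of light. Water was withheld for 3 days in the drought group, plants of the heat group stood at 40 °C for 3 h, and an untreated group served as control, with 3 libraries of polyadenylated leaf RNA per group (n = 3 throughout). The labels give the line only as a code number. Their treatment note speaks of 1 replicate under drought, so the libraries of a group may come from the same plants, and p-values then describe only how these libraries vary, some or all of which could be technical. Values are FPKM, reads per kilobase of coding sequence scaled to the library's total. Each library held 12173804 to 12934922 assigned reads, which puts 12.2 to 12.9 reads behind a gene of 1 kb at 1 FPKM. Across genes, r between libraries on the log2(FPKM + 1) scale was 0.984 to 0.987 within groups and 0.794 to 0.797 between heat and drought. In bulk leaf RNA, fewer cells of a type and less RNA per cell cannot be told apart. As to the labels, small heat-shock proteins were high in the libraries of both stresses, and HSFA2 and HSP101, early genes of the heat response, were higher in the libraries labelled drought than in those labelled heat. The labels are used as given.

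As background, heat unfolds proteins, and plant cells answer with heat-shock factors that switch on chaperones, from the small heat-shock proteins that hold unfolded proteins to the HSP70, HSP90 and HSP101 machines that refold them. Drought raises the hormone abscisic acid, which closes stomata and switches on dehydrins, late embryogenesis abundant proteins and enzymes of protective sugars. Oilseed rape carries an A and a C subgenome, and most Arabidopsis genes have several copies in it. In the gene identifiers the letter and number after Bna name the subgenome and chromosome, as far as the gene is placed. Symbols follow the closest Arabidopsis locus and roles are those known from Arabidopsis. Nearly identical copies may exchange reads, which leaves their separate values uncertain. A level summed over the copies of a locus includes every copy listed, and the number of copies given is that of the copies tested. Values after ± are SDs for FPKM and standard errors for log2 differences.

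Most of the genes that differed were higher in heat for light harvesting, starch metabolism, glucosinolate synthesis, abscisic acid receptors and evening clock genes. Most were higher in drought for large chaperones, late embryogenesis abundant proteins, flavonoid synthesis, photorespiration and morning clock genes. Of all tested genes, 7718 were called higher in heat (18.2%) and 4862 higher in drought (11.5%), 29.7% in all, where a call needs an adjusted p below 0.05 in limma and a difference of 1 or more in log2(FPKM + 1). The filter bears on these counts, since 1903 of the 7718 and 860 of the 4862 entered only through the group in which they were high; among the 32898 genes at 1 FPKM or more in all 6 libraries, 4746 were higher in heat and 3468 in drought. Every difference described below as higher or lower between heat and drought passed this call. The 6 libraries did not overlap between the groups for 31037 genes, 73.2%. A difference of at least 2 on the log2 scale was reached by 1511 genes higher in heat and 1322 higher in drought, and one of at least 5 by 33 and 40. The median log2 difference over all tested genes, heat minus drought, was 0.22. TMM factors (trimmed mean of M-values) shifted that median by -0.23, and with them 5449 genes were higher in heat and 6494 in drought, so that the share of called genes higher in heat went from 61.4% to 45.6%. With quantile normalization that share was 49.1%. Differences are therefore read against the median of 0.22 below.

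Among the 12 largest differences toward heat, at genes with a known description or symbol, were RNA-binding clock outputs, a light-harvesting gene, a chlorophyll synthesis gene and a catalase. GRP7 (BnaUnng05060D), a glycine-rich RNA-binding protein under clock control, stood at 1.43, 1.41 and 1.36 FPKM in the drought libraries and at 526, 485 and 553 FPKM in the heat libraries, against a control mean of 1.12 ± 0.180 (SD). Only the 3 heat libraries carried this copy above 2 FPKM (log2 difference 7.76 ± 0.088 SE, adjusted p = 9.88e-14 in limma), and 4 of its 4 copies were higher in heat. CCL (BnaC09g01160D), a gene named for its likeness to such a cold and circadian RNA-binding gene, stood at 10.4, 13.4 and 11.8 FPKM in the drought libraries and at 1445, 1374 and 1497 FPKM in the heat libraries. The groups lay far apart (log2 difference 6.81 ± 0.10 SE, adjusted p = 6.66e-13 in limma), again with the control nearer to drought, at 20.1 ± 3.07 FPKM. LHB1B1 (BnaC04g10770D), a light-harvesting protein of photosystem II, stood at 33.9, 30.9 and 35.4 FPKM in the drought libraries and at 2066, 2070.0 and 1996 FPKM in the heat libraries. All heat libraries exceeded the control mean of 196 ± 7.36 FPKM and all drought libraries lay below it (log2 difference 5.90 ± 0.050 SE, adjusted p = 1.5e-14 in limma). With its copies summed, LHB1B1 averaged 7479 FPKM in control, 3480 in drought and 16032 in heat, a much smaller difference than at this copy. Of 7 copies of LHB1B1, 6 were higher in heat. PORB (BnaA03g48610D), the light-driven enzyme that makes chlorophyllide, stood at 0.777, 0.682 and 0.370 FPKM in the drought libraries and at 86.6, 91.7 and 91.8 FPKM in the heat libraries. This copy entered the comparison only through the heat libraries, so its log2 difference of 5.83 ± 0.12 is given without a p-value, and 5 of 5 copies were higher in heat. CAT3 (BnaA06g14510D), a catalase that breaks down hydrogen peroxide, stood at 7.22, 6.30 and 7.94 FPKM in the drought libraries and at 443, 439.9 and 432 FPKM in the heat libraries. No library overlapped (log2 difference 5.76 ± 0.092 SE, adjusted p = 9.63e-13 in limma), and 6 of 6 copies were higher in heat.

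The other 7 of the 12 were higher in heat by log2 differences of 5.57 to 7.15, most of them more than LHB1B1. They were the tetratricopeptide repeat protein AT2G29670 (BnaC04g14990D), the glycosyl hydrolase AT3G62710 (BnaC04g55020D), DAR6 (BnaC09g07940D), the chloroplast protein PIFI (BnaA05g23700D), the squalene epoxidase-like SQP1 (BnaC07g30250D), the wound-responsive family protein AT4G05070 (BnaC09g22280D) and TBL26 (BnaA09g00200D), of a family that acetylates wall polysaccharides. AT3G62710, SQP1 and AT4G05070 entered only through the heat libraries, and the adjusted p-values of the other genes were 7.38e-14 to 1.48e-09 in limma. Means in heat ran from 65.2 FPKM for AT4G05070 to 318 FPKM for TBL26, whose drought mean was 5.74 FPKM. With the copies of a locus summed, the log2 difference was 1.53 for SQP1, 3.39 for PIFI and 4.58 for DAR6. For the other loci of these 7 it was 5.26 to 6.50.

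Among the 12 largest differences toward drought were lipid transfer proteins, a dehydrin, an iron store and enzymes of inositol synthesis. LTP3 (BnaA03g09530D), a lipid transfer protein of the cell wall and cuticle, stood at 410.0, 442 and 438 FPKM in the drought libraries and at 0.889, 0.916 and 0 FPKM in the heat libraries. Every heat library lay below the control mean of 7.37 ± 1.10 FPKM and every drought library above it. This copy entered only through the drought libraries, so its log2 difference of -8.13 ± 0.21 is given without a p-value. The 3 copies of LTP3 did not move together: BnaA03g13140D was also higher in drought, whereas BnaC03g71570D, with means of 0.499 FPKM in drought and 14.1 FPKM in heat, was higher in heat. RAB18 (BnaC09g08130D), a dehydrin of water-stressed and abscisic acid-treated tissue, stood at 287, 291 and 316 FPKM in the drought libraries and at 0.889, 0.733 and 0 FPKM in the heat libraries. It too entered only through the drought libraries, with a log2 difference of -7.65 ± 0.21, and the control mean was 1.02 ± 0.378 FPKM. FER1 (BnaA03g00260D), a plastid ferritin that stores iron, stood at 672, 681 and 745 FPKM in the drought libraries and at 3.74, 3.96 and 2.96 FPKM in the heat libraries. It was the single copy tested (log2 difference -7.27 ± 0.12 SE, adjusted p = 1.05e-12 in limma). LTP4 (BnaA02g07120D), a close relative of LTP3, stood at 1559.5, 1595 and 1869 FPKM in the drought libraries and at 17.63, 15.39 and 17.61 FPKM in the heat libraries. No library overlapped (log2 difference -6.55 ± 0.069 SE, adjusted p = 6.58e-14 in limma), and 6 of 6 copies of LTP4 were higher in drought. The locus sum of LTP4 averaged 958 FPKM in control, 6109 in drought and 754 in heat, with a log2 difference of -3.02.

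MIPS2 and MIPS1, synthases that open the making of inositol, were also among the 12. MIPS2 (BnaC08g35240D) stood at 2572, 2574 and 2424 FPKM in the drought libraries and at 36.7, 31.9 and 31.6 FPKM in the heat libraries, against 490.4, 466 and 481 FPKM in control (log2 difference -6.20 ± 0.053 SE, adjusted p = 1.5e-14 in limma). MIPS1 (BnaA01g34710D) stood at 3359.8, 3411 and 3200.3 FPKM in the drought libraries and at 64.0, 62.1 and 52.3 FPKM in the heat libraries, against 1494, 1513 and 1525 FPKM in control (log2 difference -5.79 ± 0.061 SE, adjusted p = 6.23e-14 in limma). All 4 copies of MIPS2 and both copies of MIPS1 tested were higher in drought. GolS2 (BnaCnng63310D), which joins inositol to galactose for raffinose sugars, stood at 155, 161 and 169 FPKM in the drought libraries and at 2.02, 2.33 and 2.36 FPKM in the heat libraries. Its drought libraries alone were high (log2 difference -5.65 ± 0.11 SE, adjusted p = 3.29e-12 in limma), with a control mean of 5.40 ± 0.915 FPKM. The other 5 of the 12 were the late embryogenesis abundant gene AT3G17520 (BnaAnng35040D), the sugar transporter gene SAG29 (BnaC02g04530D), ELIP1 (BnaA03g36810D), the dynein light chain gene AT4G27360 (BnaA01g16380D) and DDF1 (BnaC08g15650D), an AP2-type factor. Their log2 differences were -7.11 to -5.64, and those of AT3G17520 and SAG29 were larger than that of MIPS2. AT3G17520, SAG29 and DDF1 entered only through the drought libraries. DDF1 was listed at 0 in 2 of the 3 heat libraries, against 47.6, 54.2 and 51.1 FPKM in drought.

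Genes that left the control in opposite directions were few. Against the same 3 control libraries, 6365 genes were higher (15.0%) and 4419 lower (10.4%) in heat, and 2265 were higher (5.34%) and 2524 lower (5.96%) in drought. Above control in heat and below it in drought were 221 genes (0.521%) at 174 Arabidopsis loci, with median log2 differences from control of 1.64 in heat and -1.32 in drought. Their median level was 8.35 FPKM in control, 2.41 FPKM in drought and 31.6 FPKM in heat. The reverse held for 229 genes (0.54%) at 176 loci, with medians of -1.47 in heat and 1.46 in drought and median levels of 13.4, 41.0 and 2.88 FPKM in control, drought and heat. All 450 genes were also called in heat against drought, as their selection requires. The selection also makes overlap between the stresses unlikely. None of the 450 had it, beside 73.2% of all tested genes without overlap. With TMM factors the classes held 161 and 305 genes. With the copies of a locus summed they held 92 and 79 loci.

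**Figure D1:**
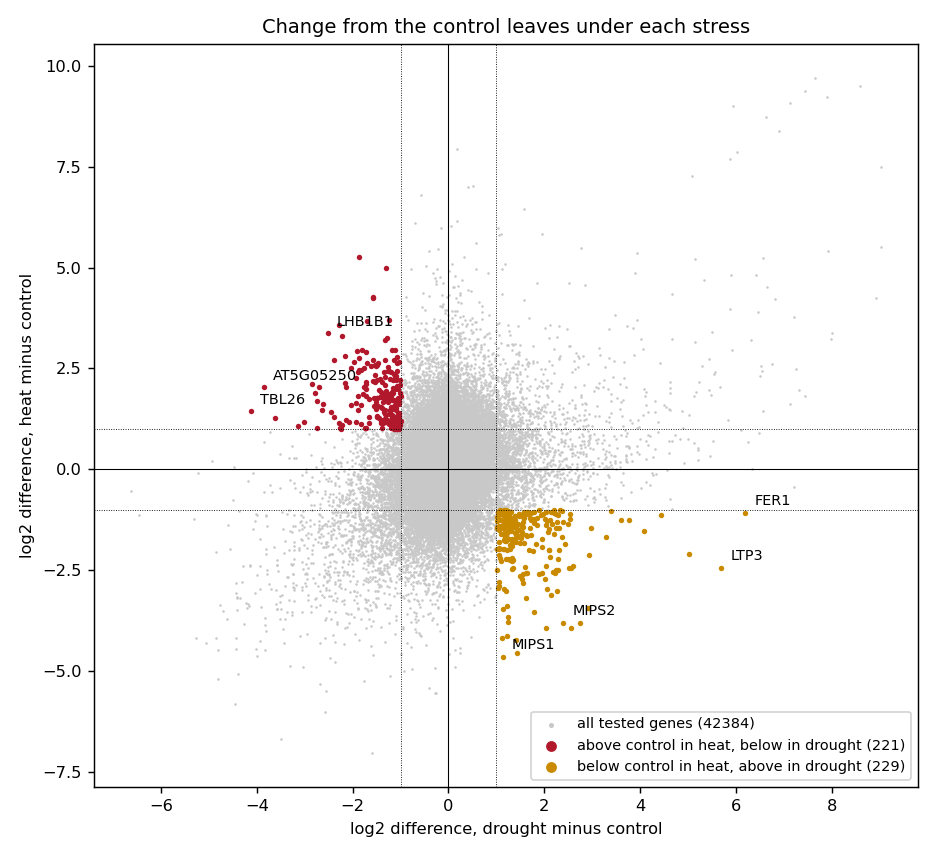
Log2 difference of heat minus control (vertical) against log2 difference of drought minus control (horizontal) for the 42384 tested genes (grey), with dotted lines at differences of 1. The 221 genes above control in heat and below it in drought are red, the 229 genes below control in heat and above it in drought are ochre. Both axes share the 3 control libraries; FER1 and LTP3 lie farthest to the right among the ochre genes, and LHB1B1, TBL26 and AT5G05250 are labelled among the red.

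Copies of genes for light harvesting, chlorophyll synthesis and nitrate uptake were among those above control in heat and below it in drought. CAB1 (BnaA04g20150D), a light-harvesting protein, stood at 399.9, 377 and 449.7 FPKM in the drought libraries and at 7348, 7365 and 7637 FPKM in the heat libraries, with 1847, 1796 and 1782 FPKM in control. Control lay between the stresses, with log2 differences from it of 2.04 ± 0.050 in heat and -2.15 ± 0.050 in drought (adjusted p = 3.38e-11 and 3.21e-11 in limma). PORB (BnaC01g19630D) stood at 8.53, 8.35 and 10.2 FPKM in the drought libraries and at 451, 457 and 479 FPKM in the heat libraries, with 47.3, 44.0 and 45.8 FPKM in control. Its heat libraries stood above and its drought libraries below every control library, by 3.31 ± 0.069 and -2.23 ± 0.069. NRT1.1 (BnaA09g47380D), a nitrate transporter and sensor of roots and leaves, stood at 1.14, 0.799 and 0.726 FPKM in the drought libraries and at 58.3, 60.5 and 54.8 FPKM in the heat libraries, with 12.7, 12.6 and 12.2 FPKM in control. The differences from control were 2.12 ± 0.10 in heat and -2.84 ± 0.10 in drought, and 7 of 7 copies were higher in heat than in drought. Only 2 of the 7 were in this class. The locus sum of NRT1.1 averaged 145 FPKM in control, 29.0 in drought and 184 in heat. GRP8 (BnaA01g05410D), the partner of GRP7, stood at 2.55, 2.30 and 3.64 FPKM in the drought libraries and at 124, 98.7 and 133 FPKM in the heat libraries, with 15.5, 18.4 and 14.4 FPKM in control. No library overlapped between groups for this copy, while 6 of 7 copies of GRP8 were higher in heat and 1 in drought. Of these 7 copies, 2 were in this class. The locus sum of GRP8 averaged 50.1 FPKM in control, 46.9 in drought and 310 in heat. TBL26 (BnaCnng01880D) and SQP1 (BnaC07g30250D) belonged to the same class, with means of 22.8 ± 0.322 and 0.671 ± 0.153 FPKM in drought and 815 ± 5.88 and 95.7 ± 0.723 FPKM in heat. In the class were 2 of 2 copies of TBL26, 2 of 5 copies of SQP1 and 4 of 7 copies of LHB1B1. The remaining genes of the 10 with the largest smaller change were LHB1B1, the pectin methylesterase inhibitor family gene AT5G04970, the leucine-rich repeat gene AT1G49750 and AT5G05250, for which no role is given. AT5G05250 was in the class with 1 of 2 copies, and its locus sum was lower in heat (193 FPKM) than in control (248 FPKM). SQP1 (BnaC07g30250D), AT5G04970 (BnaC09g50270D) and AT5G05250 (BnaC09g50070D) entered only through the heat libraries.

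Lipid transfer, iron handling and sugar protection were among the genes below control in heat and above it in drought. LTP3 (BnaA03g13140D) stood at 2624, 2815 and 2843 FPKM in the drought libraries and at 35.8, 32.1 and 31.0 FPKM in the heat libraries, with 355, 379 and 363 FPKM in control. The log2 differences from control were -3.43 ± 0.053 in heat and 2.91 ± 0.053 in drought (adjusted p = 9.86e-13 and 4.78e-12 in limma). NEET (BnaA10g07790D), an iron-sulfur cluster protein, stood at 571, 577 and 599 FPKM in the drought libraries and at 22.0, 16.8 and 14.6 FPKM in the heat libraries, with 107, 108 and 88.9 FPKM in control. Control lay between the stresses by -2.46 ± 0.12 and 2.52 ± 0.12. The metallothionein gene MT4a (BnaC03g27400D), a metal-binding protein gene of seeds, stood at 209, 225 and 297 FPKM in the drought libraries and at 5.63, 6.11 and 8.39 FPKM in the heat libraries, with 46.2, 40.4 and 32.2 FPKM in control. Its groups were separate although its spread within groups was wide. GA2OX6 (BnaA10g01100D), which inactivates the growth hormone gibberellin, stood at 26.6, 26.7 and 26.6 FPKM in the drought libraries and at 0.156, 0.242 and 0.237 FPKM in the heat libraries, with 4.62, 5.13 and 4.37 FPKM in control. All copies of NEET (2), GA2OX6 (2), THA1 (4) and AT3G15760 (3) that were tested were higher in drought than in heat, and so were both copies of GolS2, which was in this class with BnaA09g15290D. GA2OX6 (BnaA10g01100D), THA1 (BnaA06g05000D) and AT3G15760 (BnaC01g35820D) entered only through the drought libraries, so these copies had to differ between the stresses. LTP4 and MIPS2, described above, were the remaining genes of the 10. THA1 (BnaA06g05000D), a threonine aldolase, averaged 39.4 ± 2.28 FPKM in drought and 0.462 ± 0.155 FPKM in heat. The lipid transfer family gene AT5G55450 (BnaA03g11410D) averaged 150.3 ± 13.6 and 4.53 ± 0.596 FPKM.

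**Figure D2:**
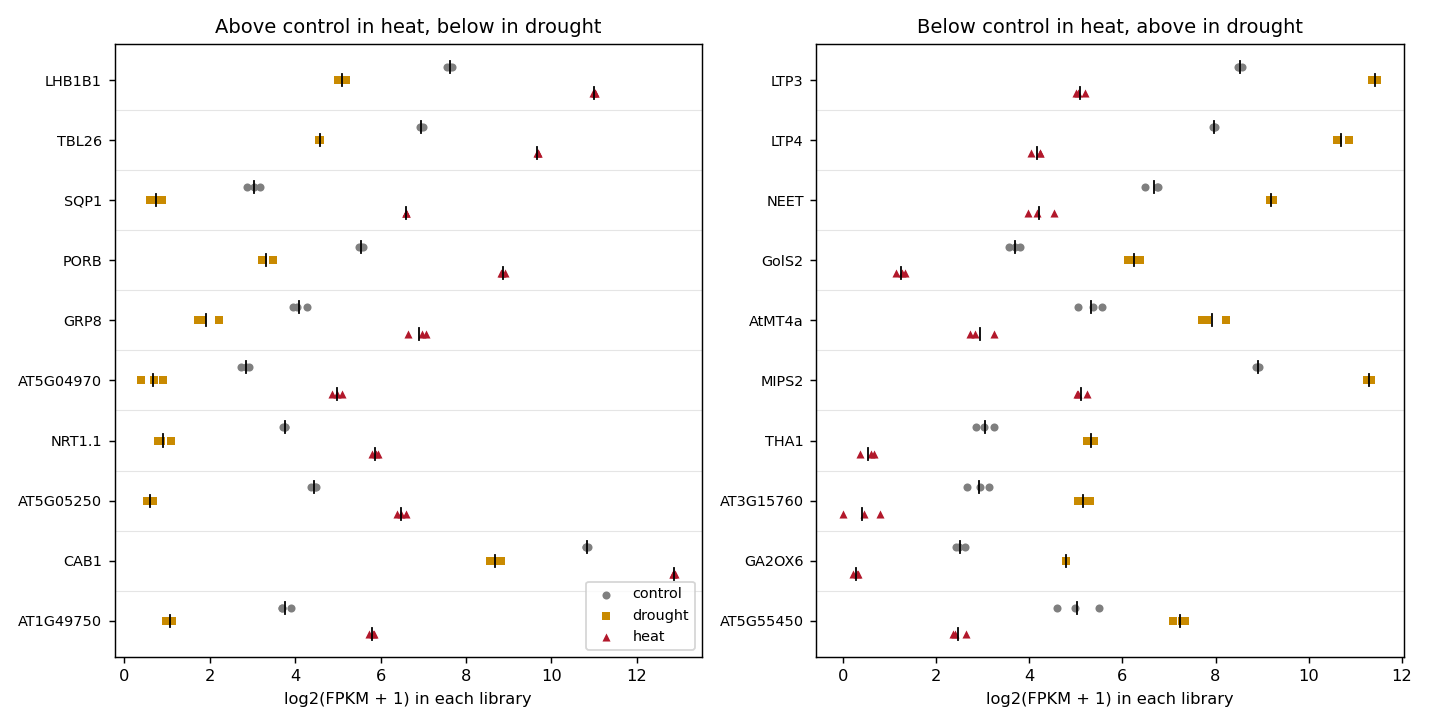
Level of the 10 genes of each opposite class with the largest smaller change, as log2(FPKM + 1) in each of the 9 libraries (grey circles control, ochre squares drought, red triangles heat; black ticks are group means, n = 3). In every gene shown the control libraries lie between the drought and heat libraries, and no libraries of different groups overlap.

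Among the 41 gene lists, the genes of opposite direction were spread unevenly. Above control in heat and below it in drought were 9 of 62 light-harvesting genes, 9 of 62 genes of starch synthesis and breakdown, 5 of 59 of glucosinolate synthesis, 3 of 72 of chlorophyll synthesis and 3 of 23 clock outputs, beside 0.521% of all genes. Below control in heat and above it in drought were 11 of 122 large chaperones and partners, beside 0.54% of all genes. The same held for 6 of 58 light signalling and shade genes, which were 4 copies of ELIP1 and 2 of ELIP2. Both encode chlorophyll-binding proteins. In this class were also 5 of 61 late embryogenesis abundant and drought genes and 5 of 56 wall-loosening genes. No small heat-shock protein of 41 was in either class, which is no departure from shares as low as 0.521% and 0.54%.

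**Figure D3:**
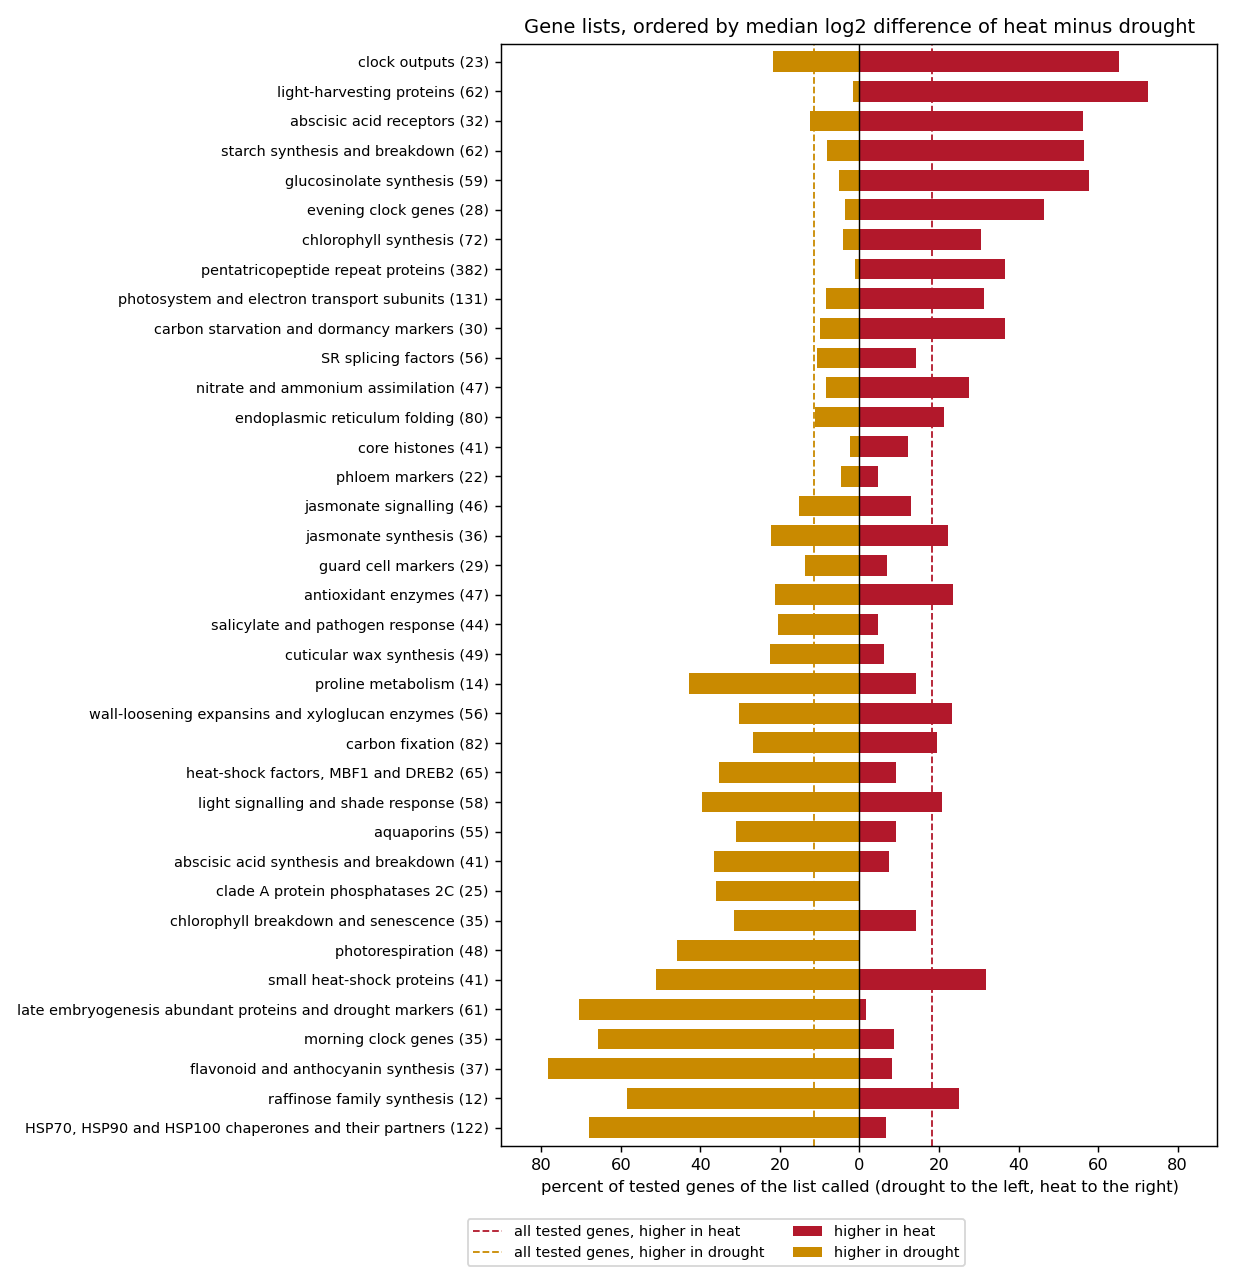
Percent of the tested genes of each list that were higher in heat (red, to the right) or higher in drought (ochre, to the left), for the lists with at least 10 tested genes (number in brackets), ordered by the median log2 difference of heat minus drought. Dashed lines mark the 18.2% and 11.5% of all tested genes; large chaperones lie at the drought end, clock outputs and light-harvesting proteins at the heat end.

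Small heat-shock proteins were high in both stresses and split between them. Their summed level was 652 to 662 FPKM in control, 25747 to 28616 FPKM in drought and 29121 to 29759 FPKM in heat. Of 41 tested genes, 13 were higher in heat and 21 higher in drought, with a median log2 difference of -1.05 beside 0.22 over all genes. HSP17.6C apart, the called copies of each locus were all on the same side. Summed over 4 copies, HSP22.0, of the endomembrane system, stood at 2164, 2114 and 2225 FPKM in the drought libraries and at 8257, 8355 and 8271 FPKM in the heat libraries (log2 difference 1.94 ± 0.035 SE, adjusted p = 5.3e-14 in limma). The plastid HSP21 stood at 734, 743 and 751 FPKM in the drought libraries and at 2459, 2486 and 2319 FPKM in the heat libraries over 3 copies (log2 difference 1.70 ± 0.045 SE, adjusted p = 1.86e-12 in limma). All copies of both were higher in heat, as were 4 of 4 copies of HSP15.4, at 2.07 ± 0.305 FPKM in drought and 29.7 ± 0.593 FPKM in heat. The cytosolic class II gene HSP17.6II stood at 5009, 5069 and 5487 FPKM in the drought libraries and at 775, 741 and 784 FPKM in the heat libraries over 5 copies (log2 difference -2.76 ± 0.038 SE, adjusted p = 5.12e-15 in limma). The mitochondrial HSP23.6-MITO stood at 1950.5, 1931 and 2187 FPKM in the drought libraries and at 436, 419.7 and 428 FPKM in the heat libraries over 2 copies (log2 difference -2.24 ± 0.046 SE, adjusted p = 1.78e-13 in limma). All copies of these, and of HSP17.4B, HSP15.7 and HSP26.5, were higher in drought, so the endomembrane and plastid members and the mitochondrial members named here stood on opposite sides. HSP17.6C, the most abundant locus, had 7524 ± 397 FPKM in drought and 13296 ± 357 FPKM in heat, with 2 of 6 copies higher in heat and 1 higher in drought.

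Most of the larger chaperones were higher in drought. The list had 8 of 122 tested genes higher in heat and 83 higher in drought, with a median of -2.03, and medians from control of 0.67 in drought and -0.40 in heat. HSP101, which pulls apart protein aggregates, summed over 4 copies, stood at 2291, 2223 and 2057 FPKM in the drought libraries and at 145, 149 and 148 FPKM in the heat libraries, with a control mean of 92.9 ± 3.68 FPKM. The heat libraries read somewhat above the control libraries and the drought libraries far above both (log2 difference -3.88 ± 0.043 SE, adjusted p = 1.29e-15 in limma). HSP70B, a heat-induced cytosolic chaperone, over 5 copies stood at 3465, 3388 and 3445 FPKM in the drought libraries and at 136, 143 and 145 FPKM in the heat libraries, with a control mean of 18.0 ± 1.92 FPKM (log2 difference -4.59 ± 0.060 SE, adjusted p = 5.12e-15 in limma). HSC70-1, the main constitutive HSP70, over 24 copies stood at 4460.1, 4485 and 4279.9 FPKM in the drought libraries and at 764, 721 and 762 FPKM in the heat libraries. There the drought libraries lay near the control mean of 4809.6 ± 140.4 FPKM and the heat libraries far below it (log2 difference -2.56 ± 0.031 SE, adjusted p = 2.35e-15 in limma). HSP90.4, a cytosolic HSP90, over 14 copies stood at 5202, 5048 and 5526 FPKM in the drought libraries and at 847, 806 and 852 FPKM in the heat libraries (log2 difference -2.65 ± 0.039 SE, adjusted p = 1.46e-14 in limma). Its control mean of 1833 ± 80.4 FPKM lay between the stresses. All 5 copies of HSP70-4 were higher in drought, and 1 of them, BnaC03g37680D, was below control in heat and above it in drought. This copy read 2046, 2039 and 1942 FPKM in drought, 162, 159.9 and 158 FPKM in heat and 483, 459 and 475 FPKM in control. The co-chaperones HOP3 and BAG6 were higher in drought as well, by -4.02 ± 0.034 and -3.99 ± 0.052. Organellar members stood on both sides. The plastid HSP90.5 and the mitochondrial MTHSC70-1 were higher in heat, by 1.16 ± 0.031 and 1.12 ± 0.048. The plastid CLPB3 and the mitochondrial CLPB4 and MTHSC70-2 were higher in drought, by -1.96 ± 0.038, -2.13 ± 0.047 and -1.99 ± 0.038, and the plastid CPHSC70-1, at -0.95 ± 0.032, was not called.

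Heat-shock factor genes that were called lay mostly on the same side. Of 65 tested genes of heat-shock factors, MBF1 and DREB2, 6 were higher in heat and 23 in drought, with a median of -0.48. HSFA2, the factor that prolongs the heat response, summed over 2 copies, stood at 419, 430.0 and 451 FPKM in the drought libraries and at 8.52, 9.06 and 6.90 FPKM in the heat libraries, with a control mean of 16.5 ± 2.03 FPKM. The heat libraries lay below every control library and the drought libraries above them (log2 difference -5.57 ± 0.10 SE, adjusted p = 6.36e-14 in limma). HSFA7A, over 5 copies, stood at 110.5, 109.5 and 120.2 FPKM in the drought libraries and at 3.93, 5.30 and 3.27 FPKM in the heat libraries (log2 difference -4.49 ± 0.14 SE, adjusted p = 7.46e-12 in limma). DREB2A, a factor of drought and heat responses, averaged 52.7 ± 5.38 FPKM in drought and 11.1 ± 1.37 FPKM in heat, a difference of -2.15 ± 0.13. HSFA3, a factor downstream of DREB2A, went the other way, at 7.07 ± 0.438 and 26.2 ± 2.08 FPKM (1.75 ± 0.13), with 1 of 2 copies higher in heat. For protein folding in the endoplasmic reticulum, 17 of 80 tested genes were higher in heat and 9 in drought, shares near those of all genes, and the median of 0.21 lay beside 0.22 over all genes. With TMM factors the counts were 9 and 10 and the median -0.023. Within the list the disulfide isomerase PDIL1-1 was higher in heat with 4 of 4 copies (1.85 ± 0.057), while the lumenal HSP70 BIP2, at -0.74 ± 0.039 over its copies, was not called as a locus, although 4 of its 8 copies were higher in drought.

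**Figure D4:**
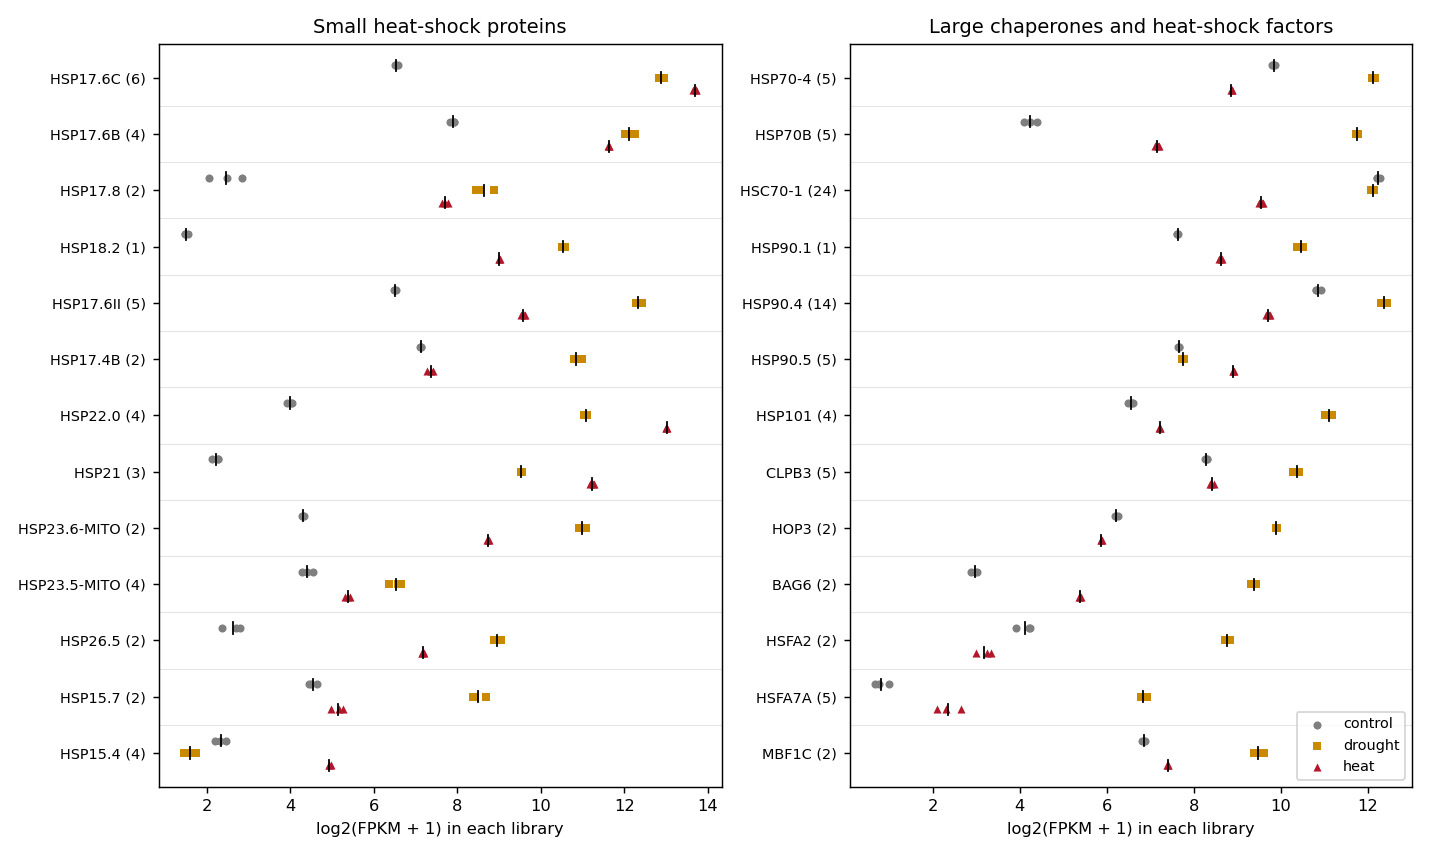
Level of chaperone and heat-shock factor loci, copies of a locus summed (number of tested copies in brackets), as log2(FPKM + 1) in each of the 9 libraries (grey circles control, ochre squares drought, red triangles heat; black ticks are group means, n = 3). HSP22.0, HSP21 and HSP90.5 lie highest in heat, while HSP101, HSP70B, HSFA2 and HSFA7A lie highest in drought.

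Within the abscisic acid pathway, called receptor genes were mostly higher in heat and called genes downstream mostly higher in drought. Among late embryogenesis abundant and drought marker genes, 1 of 61 tested was higher in heat and 43 were higher in drought, with a median of -1.49 and a summed level of 11462 to 12611 FPKM in drought, 4308 to 4642 FPKM in heat and 5130.4 to 5235 FPKM in control. The dehydrin ERD10, over 3 copies, stood at 3743, 3722 and 4040.0 FPKM in the drought libraries and at 535, 527 and 561 FPKM in the heat libraries (log2 difference -2.82 ± 0.036 SE, adjusted p = 3.4e-15 in limma). COR15B, a chloroplast-protecting protein, over 4 copies stood at 281, 261 and 348 FPKM in the drought libraries and at 21.5, 23.1 and 20.4 FPKM in the heat libraries (log2 difference -3.71 ± 0.088 SE, adjusted p = 1.01e-12 in limma). LEA4-5, over 2 copies, stood at 51.0, 52.2 and 62.3 FPKM in the drought libraries and at 0, 0 and 0.163 FPKM in the heat libraries and entered only through drought, with a log2 difference of -5.73 ± 0.16. At ERD10 and COR15B every drought library exceeded every heat library. Such a lack of overlap, in either direction, held for 73.2% of all tested genes. The factor RD26 and the caleosin gene RD20 were also higher in drought than in heat, by -1.58 ± 0.057 and -1.01 ± 0.033, yet both averaged more in control (247 ± 4.27 and 1325 ± 29.1 FPKM) than in drought (85.9 ± 7.07 and 567 ± 10.4 FPKM).

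Clade A phosphatases 2C, which brake the signal and are themselves induced by it, had 0 of 25 tested genes higher in heat and 9 higher in drought, with a median of -0.72. PP2CA (BnaC05g41830D) stood at 225, 218 and 224 FPKM in the drought libraries and at 27.2, 26.0 and 25.7 FPKM in the heat libraries, with a control mean of 64.5 ± 2.74 FPKM that lay between them (log2 difference -3.03 ± 0.048 SE, adjusted p = 9.63e-13 in limma). Of 4 copies of PP2CA, 2 were higher in drought. Their locus sum averaged 91.1 FPKM in control, 279 in drought and 75.1 in heat (-1.88). HAI1, over 2 copies, averaged 17.57 ± 1.31 FPKM in drought and 0.419 ± 0.108 FPKM in heat (-3.71 ± 0.18). HAI1 entered only through the drought libraries, so it had to differ between the stresses. The receptors, which bind the hormone and block these phosphatases, had 18 of 32 tested genes higher in heat and 4 higher in drought, with a median of 1.39. PYL6, over 3 copies, stood at 0.395, 0.262 and 0 FPKM in the drought libraries and at 43.3, 51.4 and 42.8 FPKM in the heat libraries and entered only through heat, with a log2 difference of 5.27 ± 0.16. PYL4, over 5 copies, stood at 6.12, 6.80 and 6.97 FPKM in the drought libraries and at 117, 114 and 115 FPKM in the heat libraries, with 37.6 ± 3.88 FPKM in control (log2 difference 3.93 ± 0.076 SE, adjusted p = 1.1e-13 in limma). PYL8 was higher in heat by 2.12 ± 0.068 with 3 of 4 copies, and PYL9 was higher in drought by -1.06 ± 0.059 with 2 of 5 copies against 1 of 5 higher in heat. Genes of abscisic acid synthesis and breakdown had 3 of 41 tested genes higher in heat and 15 higher in drought, with a median of -0.68. NCED3, the rate-limiting enzyme of its synthesis, over 6 copies, stood at 35.9, 37.1 and 38.5 FPKM in the drought libraries and at 8.99, 5.09 and 6.40 FPKM in the heat libraries, with 33.6 ± 2.50 FPKM in control (log2 difference -2.31 ± 0.14 SE, adjusted p = 7.95e-09 in limma). The breakdown enzymes CYP707A3 and CYP707A4 were higher in drought too, by -1.51 ± 0.15 and -1.99 ± 0.13.

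Protective sugars and proline were on the drought side for their first enzymes. Raffinose family synthesis had 3 of 12 tested genes higher in heat and 7 higher in drought, with a median of -1.72. Galactinol synthase GOLS1, over 3 copies, stood at 995, 1029.6 and 1016 FPKM in the drought libraries and at 109, 109.5 and 105 FPKM in the heat libraries, with 31.5 ± 2.48 FPKM in control (log2 difference -3.22 ± 0.051 SE, adjusted p = 1.88e-14 in limma). Both stresses exceeded control there, drought by more. GOLS3 was higher in heat, at 7.43 ± 1.63 and 18.5 ± 1.11 FPKM (1.22 ± 0.14), with 1 of 2 copies called. Raffinose synthase RS5 was higher in drought with both copies (-1.85 ± 0.061). Proline metabolism had 2 of 14 tested genes higher in heat and 6 higher in drought, with a median of -0.24. P5CS1, the first enzyme of proline synthesis, over 4 copies, stood at 251, 239.6 and 252 FPKM in the drought libraries and at 44.3, 41.5 and 40.5 FPKM in the heat libraries, with 36.1 ± 1.81 FPKM in control (log2 difference -2.53 ± 0.052 SE, adjusted p = 1.84e-13 in limma).

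Most light-harvesting genes were higher in heat. Of 62 tested, 45 were higher in heat and 1 in drought, with a median of 1.89. From control, 31 were lower and 0 higher in drought, and 21 were higher and 1 lower in heat. CAB1, over 9 copies, stood at 1997, 1972 and 2154 FPKM in the drought libraries and at 16302, 16193 and 16678 FPKM in the heat libraries, with 6444 ± 115 FPKM in control (log2 difference 3.01 ± 0.030 SE, adjusted p = 9.6e-16 in limma). The photosystem II antenna protein LHCB6, over 6 copies, stood at 661, 651 and 706 FPKM in the drought libraries and at 4945, 4845 and 4789 FPKM in the heat libraries, with 1177 ± 17.5 FPKM in control (log2 difference 2.85 ± 0.031 SE, adjusted p = 1.18e-15 in limma). The photosystem I antenna protein LHCA4, over 2 copies, stood at 1781, 1729 and 1794 FPKM in the drought libraries and at 7147, 6984 and 6881 FPKM in the heat libraries, with 3699 ± 26.55 FPKM in control (log2 difference 1.99 ± 0.023 SE, adjusted p = 1.45e-15 in limma). The same order, drought below control below heat, held at all 3 loci without overlap. The difference was smaller at other antenna loci: LHCB5 averaged 4359 ± 60.1 FPKM in drought and 5199.8 ± 150.4 FPKM in heat with none of 4 copies called, and neither LHCA5 nor LHCA6 had a copy called.

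Other parts of photosynthesis separated by step. Photosystem and electron transport subunits had 41 of 131 tested genes higher in heat and 11 higher in drought, with a median of 0.54 (0.26 with TMM factors, 25 and 15 genes). PSAO (BnaA09g48920D), a photosystem I subunit that docks antenna, stood at 266, 261 and 268 FPKM in the drought libraries and at 2558, 2456 and 2509.5 FPKM in the heat libraries, with 718 ± 22.1 FPKM in control (log2 difference 3.24 ± 0.029 SE, adjusted p = 1.84e-14 in limma). The ferredoxin FD2, which carries electrons from photosystem I, over 9 copies, stood at 5461, 5485 and 5773 FPKM in the drought libraries and at 2077, 2054 and 2042 FPKM in the heat libraries, with 3807 ± 15.44 FPKM in control (log2 difference -1.44 ± 0.024 SE, adjusted p = 2.74e-14 in limma). Summed over copies, PSAO averaged 2424 FPKM in control, 1475 in drought and 5108 in heat (1.79), with 2 of 4 copies higher in heat. The sums of the subunit and the carrier thus stood on opposite sides of control in each stress, and 8 of 9 copies of FD2 were higher in drought. Called on opposite sides of control in the 2 stresses were 1 of 4 copies of PSAO and 3 of 9 of FD2. Carbon fixation had 16 of 82 tested genes higher in heat and 22 higher in drought (with TMM factors the counts were 12 and 31), with a median of -0.29. Rubisco activase RCA, over 6 copies, stood at 22361, 22005 and 21244 FPKM in the drought libraries and at 8355, 8138 and 8371 FPKM in the heat libraries, with 24731 ± 135 FPKM in control (log2 difference -1.40 ± 0.020 SE, adjusted p = 8.47e-15 in limma). The regulators CP12-1 and CP12-2, which hold Calvin cycle enzymes inactive in the dark, were higher in heat, by 1.11 ± 0.045 and 1.98 ± 0.060. Photorespiration had 0 of 48 tested genes higher in heat and 22 higher in drought, with a median of -0.99. Its aminotransferase AGT, over 4 copies, stood at 4288, 4343 and 4399 FPKM in the drought libraries and at 1482, 1469 and 1492 FPKM in the heat libraries, with 3148 ± 8.82 FPKM in control (log2 difference -1.55 ± 0.020 SE, adjusted p = 4.18e-15 in limma). The glycine decarboxylase gene GLDP1, the glycolate oxidase gene GOX1 and the hydroxypyruvate reductase gene HPR1 were higher in drought by -1.58 ± 0.030, -1.73 ± 0.039 and -1.55 ± 0.027, and drought lay within 0.46 of control or less at these 4 loci on the log2 scale, so heat stood away from both.

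Chlorophyll synthesis had 22 of 72 tested genes higher in heat and 3 higher in drought, with a median of 0.79. PORB, over 5 copies, averaged 13.2 ± 0.307 FPKM in drought, 58.8 ± 1.75 in control and 829.8 ± 18.4 in heat (log2 difference 5.87 ± 0.042 SE, adjusted p = 3.35e-17 in limma). The first committed enzyme HEMA1 went toward drought through 1 of 5 copies, BnaA03g59660D, at 147, 161 and 170.3 FPKM in drought and 6.33, 7.25 and 5.21 FPKM in heat. Chlorophyll breakdown and senescence had 5 of 35 tested genes higher in heat and 11 higher in drought (with TMM factors the counts were 3 and 17), with a median of -0.72. NYE1, which starts the loss of chlorophyll, over 5 copies, stood at 69.7, 67.7 and 78.9 FPKM in the drought libraries and at 19.7, 22.7 and 20.8 FPKM in the heat libraries (log2 difference -1.73 ± 0.068 SE, adjusted p = 9.28e-11 in limma). SAG12, a protease gene of old leaves, averaged 4.30 ± 0.534 FPKM in drought and 0.0511 ± 0.0884 FPKM in heat. SAG12 entered only through the drought libraries, so it had to differ between the stresses.

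Most genes of starch metabolism were higher in heat. The list of starch synthesis and breakdown had 35 of 62 tested genes higher in heat and 5 higher in drought, with a median of 1.24. GWD, the dikinase that opens starch to attack, over 4 copies, stood at 10.4, 12.01 and 10.3 FPKM in the drought libraries and at 282, 292 and 283 FPKM in the heat libraries, with 14.5 ± 0.355 FPKM in control (log2 difference 4.59 ± 0.063 SE, adjusted p = 5.12e-15 in limma). DPE2, which uses maltose in the cytosol, over 2 copies, stood at 3.75, 3.24 and 3.54 FPKM in the drought libraries and at 71.3, 73.0 and 68.6 FPKM in the heat libraries (log2 difference 3.997 ± 0.078 SE, adjusted p = 1.17e-13 in limma). The small subunit of the enzyme that opens starch synthesis, APS1, over 4 copies, stood at 34.9, 36.2 and 31.7 FPKM in the drought libraries and at 238, 243 and 238 FPKM in the heat libraries, with 118 ± 1.85 FPKM in control (log2 difference 2.77 ± 0.049 SE, adjusted p = 4.99e-14 in limma). All copies of these 3 loci and of PHS1, PHS2, DPE1 and LDA were higher in heat. The beta-amylase BAM1, active in stressed leaves and guard cells, stood on the other side, at 551 ± 33.0 FPKM in drought and 115 ± 1.13 FPKM in heat (-2.25 ± 0.041), with 3 of 4 copies higher in drought. Markers of carbon starvation and dormancy had 11 of 30 tested genes higher in heat and 3 higher in drought, with a median of 0.52, among them DRM1 (4.30 ± 0.16), DRM2 (1.94 ± 0.047) and the kelch F-box gene KFB20 (4.77 ± 0.094), all higher in heat. Nitrate and ammonium assimilation had 13 of 47 tested genes higher in heat and 4 higher in drought (with TMM factors the counts were 11 and 7), with a median of 0.31 that became -0.43 with the copies of a locus summed. NRT1.1 and the nitrate reductase gene NIA1 were higher in heat, by 2.63 ± 0.044 and 1.66 ± 0.035.

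Called morning clock genes were mostly higher in drought and called evening clock genes mostly higher in heat. Morning genes had 3 of 35 tested genes higher in heat and 23 higher in drought, with a median of -1.62, and evening genes 13 of 28 tested genes higher in heat and 1 higher in drought (with TMM factors the counts were 9 and 3), with a median of 0.82. LHY, a morning factor, over 3 copies, stood at 280.5, 281 and 249.9 FPKM in the drought libraries and at 5.14, 5.01 and 4.32 FPKM in the heat libraries, with 327 ± 2.34 FPKM in control (log2 difference -5.54 ± 0.062 SE, adjusted p = 1.28e-15 in limma). RVE1, a related morning factor, over 4 copies, stood at 60.5, 63.6 and 60.8 FPKM in the drought libraries and at 3.50, 2.30 and 2.60 FPKM in the heat libraries, with 32.7 ± 1.61 FPKM in control (log2 difference -4.06 ± 0.10 SE, adjusted p = 1.05e-12 in limma). PRR5, of the afternoon and evening, over 5 copies, stood at 4.01, 3.53 and 4.17 FPKM in the drought libraries and at 23.1, 20.5 and 22.7 FPKM in the heat libraries, with 1.79 ± 0.151 FPKM in control (log2 difference 2.24 ± 0.10 SE, adjusted p = 5.17e-10 in limma). The drought libraries lay near control for LHY, and the heat libraries stood apart for all 3. TOC1, an evening repressor, was higher in heat by 2.08 ± 0.14 with 3 of 3 copies, PRR7, of the later morning, by 1.67 ± 0.064. Clock outputs had 15 of 23 tested genes higher in heat and 5 higher in drought, with a median of 2.46; those higher in drought were copies of COL1, COL2 and GRP8. The time of day at which each group was taken is not in the labels, and its part in these and the other differences was not tested.

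**Figure D5:**
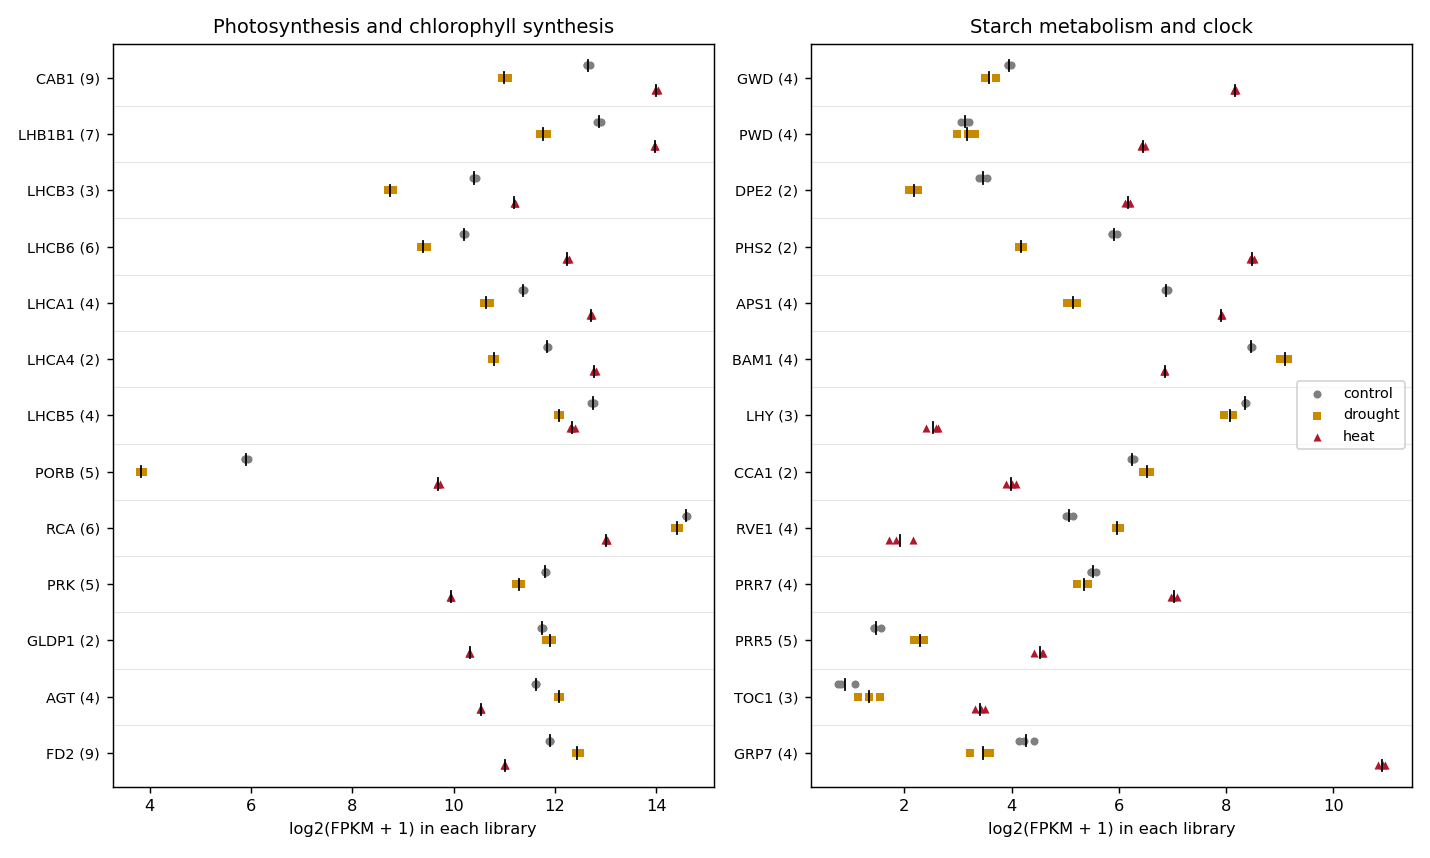
Level of selected photosynthesis, starch and clock loci, copies of a locus summed (number of tested copies in brackets), as log2(FPKM + 1) in each of the 9 libraries (grey circles control, ochre squares drought, red triangles heat; black ticks are group means, n = 3). CAB1, PORB, DPE2 and PHS2 run from drought through control to heat, whereas RCA, AGT, LHY and RVE1 are lowest in heat.

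Light signalling and shade response had 12 of 58 tested genes higher in heat and 23 higher in drought, with a median of -0.50. ELIP1, which binds free chlorophyll under light stress, over 6 copies, stood at 3958, 3999 and 4422 FPKM in the drought libraries and at 282, 281 and 284 FPKM in the heat libraries, with 1433 ± 37.5 FPKM in control (log2 difference -3.86 ± 0.039 SE, adjusted p = 7.26e-16 in limma). The light-signalling factors HY5 and HYH were higher in drought with all 4 and all 6 copies (-2.22 ± 0.084 and -2.52 ± 0.11), and PIF4, a factor of growth in warmth, was higher in heat with 3 of 3 copies (2.26 ± 0.12). IAA19, an auxin-response repressor gene, was higher in drought (-2.98 ± 0.13).

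Defence metabolism separated by pathway. Glucosinolate synthesis had 34 of 59 tested genes higher in heat and 3 higher in drought, with a median of 1.14 and a summed level of 1429.8 to 1493 FPKM in drought, 3639 to 3778 FPKM in control and 4896 to 4968 FPKM in heat. CYP83A1, of the aliphatic branch, over 3 copies, stood at 329, 344 and 348 FPKM in the drought libraries and at 1876, 1905 and 1920.4 FPKM in the heat libraries, with 786 ± 7.12 FPKM in control (log2 difference 2.48 ± 0.029 SE, adjusted p = 1.57e-15 in limma). CYP79F1, which opens that branch, over 3 copies, stood at 43.0, 44.5 and 46.4 FPKM in the drought libraries and at 303, 316 and 313 FPKM in the heat libraries, with 139 ± 6.67 FPKM in control (log2 difference 2.77 ± 0.046 SE, adjusted p = 2.74e-14 in limma). Heat lay above control and drought below it at both. For MYB34 and SOT16, of the indole branch, both stresses lay below control: MYB34 averaged 44.6 ± 1.22 FPKM in control, 1.31 ± 0.267 in drought and 11.95 ± 0.277 in heat, and SOT16 325 ± 6.45, 39.8 ± 0.0342 and 98.6 ± 6.34. Flavonoid and anthocyanin synthesis had 3 of 37 tested genes higher in heat and 29 higher in drought, with a median of -1.67. Chalcone synthase CHS, the first enzyme of the pathway, over 6 copies, stood at 161, 156 and 164 FPKM in the drought libraries and at 12.8, 16.2 and 12.3 FPKM in the heat libraries, with 455 ± 19.1 FPKM in control (log2 difference -3.46 ± 0.080 SE, adjusted p = 8.19e-13 in limma). The anthocyanin sugar transferase UF3GT, over 2 copies, stood at 30.8, 29.4 and 26.2 FPKM in the drought libraries and at 1.09, 0.376 and 0.369 FPKM in the heat libraries, with 28.0 ± 1.20 FPKM in control (log2 difference -4.23 ± 0.15 SE, adjusted p = 3.54e-11 in limma). Heat was lowest at both, and drought was near control at UF3GT.

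Called jasmonate genes were split about evenly between the stresses, and for signalling the counts lay near the shares of all genes. For synthesis the shares were 22.2% each way, beside 18.2% higher in heat and 11.5% higher in drought of all genes. Both medians lay below the 0.22 of all genes. Synthesis had 8 of 36 tested genes higher in heat and 8 higher in drought, with a median of 0.033 (-0.17 with TMM factors), and signalling had 6 of 46 tested genes higher in heat and 7 higher in drought, with a median of 0.047 (-0.19 with TMM factors, which called 3 and 7). From control, 21 and 32 genes were lower in drought, and 18 and 32 in heat. Within synthesis, the cyclase gene AOC2, over 4 copies, stood at 197, 196 and 198 FPKM in the drought libraries and at 6.84, 8.15 and 6.62 FPKM in the heat libraries, with 331 ± 3.43 FPKM in control (log2 difference -4.60 ± 0.060 SE, adjusted p = 4.18e-15 in limma). The lipoxygenase gene LOX2, over 11 copies, stood at 497, 486 and 441 FPKM in the drought libraries and at 1370.4, 1391 and 1407 FPKM in the heat libraries, with 1203 ± 13.2 FPKM in control (log2 difference 1.55 ± 0.039 SE, adjusted p = 1.22e-12 in limma). These stood on opposite sides, with 4 of 4 copies of AOC2 higher in drought and 6 of 11 copies of LOX2 higher in heat against 2 higher in drought. The repressor genes JAZ3 and JAZ6 were higher in drought and in heat, by -1.78 ± 0.093 and 1.04 ± 0.038.

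Cuticular wax synthesis had 3 of 49 tested genes higher in heat and 11 higher in drought, with a median of -0.15. The wax ester synthase gene WSD1, over 2 copies, stood at 159, 158 and 155 FPKM in the drought libraries and at 3.39, 4.43 and 3.86 FPKM in the heat libraries, with 133 ± 3.93 FPKM in control (log2 difference -5.02 ± 0.069 SE, adjusted p = 5.12e-15 in limma). Only heat lay away from control there. Aquaporins had 5 of 55 tested genes higher in heat and 17 higher in drought, with a median of -0.52: the plasma membrane PIP2;1 was higher in drought by -1.52 ± 0.027 and the vacuolar TIP1;2 higher in heat by 1.19 ± 0.026, with control above both stresses at each (2728 ± 5.21 and 1989 ± 13.0 FPKM). Wall-loosening expansins and xyloglucan enzymes had 13 of 56 tested genes higher in heat and 17 higher in drought, with a median of -0.29. The expansin-like EXLA1 was higher in drought with 5 of 5 copies (-3.53 ± 0.086), and XTH32 higher in heat with both copies (2.95 ± 0.10). Salicylate and pathogen response had 2 of 44 tested genes higher in heat and 9 higher in drought (with TMM factors the counts were 0 and 12), with a median of -0.13, among them 5 of 9 copies of the defence regulator PAD4 on the drought side (-1.30 ± 0.061).

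The catalases CAT3 and CAT2 stood on opposite sides among antioxidant enzymes. The list had 11 of 47 tested genes higher in heat and 10 higher in drought (with TMM factors the counts were 11 and 13), with a median of -0.11. CAT3, over 6 copies, stood at 948, 935 and 914 FPKM in the drought libraries and at 8217, 8177 and 8213 FPKM in the heat libraries, with 732 ± 1.83 FPKM in control (log2 difference 3.14 ± 0.022 SE, adjusted p = 3.35e-17 in limma). CAT2, the catalase of photorespiration, over 7 copies, stood at 5696, 5671 and 5326 FPKM in the drought libraries and at 1243, 1200.2 and 1210.5 FPKM in the heat libraries, with 3687 ± 96.5 FPKM in control (log2 difference -2.19 ± 0.030 SE, adjusted p = 5.12e-15 in limma). CAT3 was the more abundant catalase in heat and CAT2 in drought and control. The plastid iron superoxide dismutase genes FSD2 and FSD3 were higher in heat, by 2.21 ± 0.087 and 2.06 ± 0.11, and the ascorbate peroxidase copy BnaC08g43490D of APX1 was higher in drought, by -2.50 ± 0.064, whereas APX1 summed over its copies, at -0.87 ± 0.040, was not called.

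SR splicing factors had 8 of 56 tested genes higher in heat and 6 higher in drought, shares near those of all genes, with a median of 0.40. The balance depended on the scaling, with counts of 4 and 9 with TMM factors and 6 and 7 with quantile normalization. SR45A and SR30, splicing regulators, were higher in drought with both copies each, by -2.22 ± 0.049 and -1.60 ± 0.057. Pentatricopeptide repeat proteins, which process RNA in chloroplasts and mitochondria, had 140 of 382 tested genes higher in heat and 4 higher in drought, with a median of 0.76 (0.57 and 105 against 9 genes with TMM factors). The 3 with the smallest adjusted p were AT1G73710 (BnaC06g34550D, 2.47 ± 0.089), higher in heat, and AT5G13770 (BnaC02g05010D, -2.02 ± 0.083) and AT3G46610 (BnaA03g04850D, -2.22 ± 0.11), higher in drought, so that the 3 genes named do not mirror the counts of the list. Of 9 tested genes described as cytosolic ribosomal proteins, 3 were higher in heat (median 0.70), each of them a copy of P40, and with TMM factors none of these calls was left (0 of 9, median 0.42). The match by description found only 2 loci, P40 and RPL18AA, so this list does not stand for ribosomal proteins in general. Of 41 core histones 5 were higher in heat and 1 in drought, with a median of 0.20, and with TMM factors 5 and 3, with a median of -0.014.

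Markers of other cells and organs were checked beside these results. Antenna and Rubisco activase genes, which mark green leaf, stood at high levels in all groups, and no floral marker of 5 loci (AP1, AP3, PI, AG, SEP3) passed the filter. Of 7 root markers, SCR alone was tested, at summed levels of 9.60 to 11.9 FPKM in drought and 11.97 to 13.4 FPKM in heat, with neither copy called. Guard cell markers had 2 of 29 tested genes higher in heat and 4 higher in drought and summed to 349.6 to 370.0 FPKM in control, 278 to 287 in drought and 258 to 261 in heat (median log2 difference 0.024, and with TMM factors -0.25 with counts of 1 and 7). Phloem markers had 1 of 22 tested genes higher in heat and 1 higher in drought and summed to 634 to 679, 686 to 715 and 777 to 787 FPKM (median 0.17, and with TMM factors -0.10 with counts of 0 and 3). Of 6 seed storage loci only the oil-body gene OLEO1 was tested, and both copies were higher in heat: BnaC08g11970D read 2.13, 2.101 and 2.61 FPKM in drought and 14.6, 17.1 and 13.8 FPKM in heat (log2 difference 2.30 ± 0.13 SE, adjusted p = 2.66e-08 in limma). The part of these cell types in the results above was not tested.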

How the data were processed

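Leaf RNA of 9 Brassica napus libraries was analysed (3 control, 3 drought, 3 heat). The 14 samples of Moricandia suffruticosa were not analysed here. The authors deposited 1 table of normalized values for 101040 genes with annotation; reads were aligned with HISAT2, per the submitters' processing notes. For its version, genome build, annotation and counter, the entry is: not given in the sources used here. No source names the unit of the deposited values, which was inferred from them: taken as FPKM on coding length, at least 99.4% of values per library came out as whole reads within 0.01. The columns were matched to libraries by their names.

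Values were analysed as log2(FPKM + 1) in limma 3.58.1 (R 4.3.3) with 1 mean per group over the 9 libraries, mean-variance trend, robust moderation and no replicate block. P-values were adjusted by Benjamini-Hochberg within each comparison over all 42384 genes with at least 1 FPKM in 3 or more of the 6 stressed libraries. Locus sums were tested in the same way over all loci. The members and the 41 lists (38 of Arabidopsis loci, with 576 of 624 loci found, and 3 by protein description) were chosen with earlier results of these data known. Genes were named by rule: the 12 largest differences each way among genes with a known description or symbol and no overlap, and the 10 largest of each opposite class (at least 10 FPKM in the higher group, 1 per locus), and in each list the 3 with the smallest adjusted p. Other members named were chosen after their values were seen. Alternatives covered normalization (TMM with trims of 30% and 5%, quantile), pseudocount, filter, fold threshold, moderation, block, summed copies, left-out libraries and voom on the recovered reads, which called 10140 genes higher in heat and 5947 in drought. The fit was tested on simulated data. Tables and figures were made with Python 3.11.15, pandas 2.3.3, NumPy 2.4.6 and Matplotlib 3.10.9.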

Additional observations from a re-analysis of the deposited data

How the results depend on the processing

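The counts were most open to the fold threshold, the pseudocount and the treatment of copies. Without a fold threshold 18712 genes were higher in heat and 11514 in drought, with 3404 above control in heat and below it in drought and 2135 the reverse; at a log2 difference of at least 2 these were 1511, 1322, 11 and 24. Summing the copies of a locus, which leaves fewer tests, gave 2914, 1634, 92 and 79 loci. A filter of 5 FPKM left 4979 genes higher in heat. A pseudocount of 0.1, which lets low genes pass the fold threshold, gave 661 and 437 genes of opposite direction, and voom on recovered reads 699 and 441. TMM factors and quantile normalization moved the balance between the stresses, as given with the counts. With the replicate block 7722 and 4865 genes were called, and 221 and 229 of opposite direction. Deviations of libraries with the same number had r of -0.018 to 0.029, and those with different numbers -0.031 to 0.029. The labels do not say whether libraries of the same number share a plant, day or batch. Leaving out 1 library gave 7717 to 7851, 4824 to 4870, 209 to 240 and 225 to 232. Of 148 genes named by rule, 19 lost their call under some alternative. The sieve element gene SEOR2 (BnaA05g33720D) did so on leaving out a library, at -0.96 without drought replicate 1 and -0.99 without heat replicate 3. On summing copies, 3 reversed because other copies of the locus differ: the copies of ABA1 (BnaA07g12170D, 1.36) at -0.21, LKP2 (BnaA07g01250D, 2.30) at -0.16 and P5CDH (BnaA06g22040D, -1.30) at 0.20. The depth of about 12.2 reads per kb at 1 FPKM limits what can be said of genes near the filter.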

Other observations

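Protein families outside the lists were ranked by the share of their genes called or by their number of genes of opposite direction. The rankings covered 356 InterPro families with at least 20 tested genes, after the values were seen and with no test. Higher in heat were 15 of 22 genes of the chaperonin Cpn60, which folds proteins in organelles, 17 of 25 protein arginine methyltransferases and 13 of 20 genes with a major latex protein domain, against 18.2% of all tested genes. Ribosomal protein families also stood at this end, with 16 of 26 genes of the L7Ae/L8/Nhp2 family higher in heat and 1 higher in drought. Higher in drought were 20 of 36 B-box zinc finger genes, a family with many light and clock regulators. So were 15 of 27 genes with a Phox/Bem1p domain, against 11.5% of all tested genes. Genes with the calcium-binding EF-hand came from the ranking by opposite direction, with 5 of 204 below control in heat and above it in drought. Of these 204, 66 were higher in drought and 19 higher in heat. The AP2-type factors, described by an integrase-type DNA-binding domain, were called both ways, with 71 of 213 higher in heat and 43 higher in drought, and 8 were below control in heat and above it in drought against 1 the reverse. Cytochrome P450 genes had 8 of 223 above control in heat and below it in drought and 0 the reverse.

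Copies of a locus did not always move together. Of 12335 loci with at least 2 tested copies, 6289 had a copy called, 875 had all copies higher in heat, 558 had all higher in drought and 385 had copies called in both directions. In the A subgenome 16.6% of 20335 tested genes were higher in heat and 12.7% higher in drought, and in the C subgenome 19.6% and 10.3% of 21951.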
